A study of Mus musculus with 12 samples.

Results

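Branched-chain amino acid catabolism was followed through 9 genes, Bcat2, Bckdha, Bckdhb, Dbt, Bckdk, Ppm1k, Ivd, Mccc1 and Mccc2, each found by matching its symbol to the Ensembl IDs of the 52550 rows in the count table. All 9 were matched, were counted in all 12 libraries and passed the filter on low counts in each comparison. RNA sequencing was performed on brown adipose tissue (BAT) and inguinal white adipose tissue (WAT) of mice with and without an adipose-tissue deletion of Mcu, which forms the channel that takes calcium into mitochondria. The 4 groups held 3 libraries each: BAT AKO and WAT AKO from Mcu fl/fl AKO mice, and BAT control and WAT control from Mcu fl/fl mice without the deletion. Both genotypes carried the floxed alleles, and the design text places both on a high-fat diet. Not given in the sources used here were the Cre driver, the floxed exon, the age, the sex and any pooling. Whether replicate numbers stand for separate animals is not stated in the labels, so a p-value here reflects the spread among libraries only, which may be technical.

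Leucine, isoleucine and valine share their opening steps. In mitochondria Bcat2 moves the amino group to 2-oxoglutarate, and the branched-chain ketoacid dehydrogenase complex, built from Bckdha, Bckdhb, Dbt and the shared subunit Dld, then decarboxylates the ketoacids irreversibly. Bckdk phosphorylates and inactivates the complex, and the phosphatase Ppm1k reverses this. Leucine carbon continues through Ivd, isovaleryl-CoA dehydrogenase, and through the biotin-dependent methylcrotonyl-CoA carboxylase made of Mccc1 and Mccc2. Adipocytes are known to use these amino acids as a carbon source, and brown adipocytes oxidise them during thermogenesis.

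Library totals ran from 15692588 to 18967159 counts. The labelled depots carried their markers: 7 brown adipocyte genes, Ucp1 among them, took 0.573% to 0.71% of counts in BAT AKO and 0.57% to 0.644% in BAT control, against 0.0064% or less in each WAT library. Mcu averaged 10.7 ± 3.21 CPM (counts scaled by TMM to a common library total) in BAT AKO and 26.1 ± 2.73 CPM in BAT control, and 11.2 ± 1.28 CPM in WAT AKO and 18.8 ± 0.446 CPM in WAT control (SD, n = 3 each; exact two-sided permutation p = 0.1 in each depot, the smallest that 3 against 3 can give). Mcu was lower in each AKO library than in each control library of its depot, but edgeR's quasi-likelihood test did not call it (adjusted p = 0.202 in BAT and 0.0799 in WAT). Skeletal muscle markers exceeded 1% of counts in BAT AKO 2 (1.89%), WAT AKO 2 (2.5%) and WAT control 1 (1.42%), while the remaining 9 libraries stayed at or below 0.363%. In bulk tissue, fewer cells of a type and less RNA per cell cannot be told apart.

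RefSeq's promoter table (GRCm38.p6) held 10 start sites for 8 of the 9 genes. The 250 bases before the annotated start are shown for 4 of the genes: Ppm1k and Bckdhb, the genes with the largest AKO-to-control ratios in WAT, Bckdk, which acts on the same complex as Ppm1k in the opposite direction, and Bcat2, the gene with the lowest BAT over WAT log2 fold change in both genotypes. Capitals mark GC boxes (GGGCGG or its reverse complement CCGCCC) and CCAAT boxes (CCAAT or its reverse complement ATTGG), each searched on both strands. The Ppm1k window is chr6:57535488-57535737 on the minus strand and the Bckdk window chr7:127903823-127904072 on the plus strand, and neither overlaps an annotated exon. The Bckdhb window, chr9:83924887-83925136 on the plus strand, overlaps an exon of the non-coding Gm36278, and the Bcat2 window, chr7:45569903-45570152 on the plus strand, overlaps the antisense RNA 0610005C13Rik.
Ppm1k: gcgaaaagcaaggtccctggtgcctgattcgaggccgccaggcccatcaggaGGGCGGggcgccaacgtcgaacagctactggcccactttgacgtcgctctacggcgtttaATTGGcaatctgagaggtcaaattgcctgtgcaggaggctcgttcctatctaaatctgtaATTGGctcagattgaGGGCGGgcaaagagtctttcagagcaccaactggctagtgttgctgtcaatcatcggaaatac
Bckdhb: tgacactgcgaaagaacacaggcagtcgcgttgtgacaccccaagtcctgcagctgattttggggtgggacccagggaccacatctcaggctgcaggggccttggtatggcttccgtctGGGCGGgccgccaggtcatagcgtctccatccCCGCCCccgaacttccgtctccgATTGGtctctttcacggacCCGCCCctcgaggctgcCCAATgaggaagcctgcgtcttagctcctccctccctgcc
Bckdk: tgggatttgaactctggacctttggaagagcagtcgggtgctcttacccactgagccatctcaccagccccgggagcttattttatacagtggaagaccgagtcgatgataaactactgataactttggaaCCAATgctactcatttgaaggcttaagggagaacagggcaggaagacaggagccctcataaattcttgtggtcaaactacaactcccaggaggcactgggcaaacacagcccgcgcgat
Bcat2: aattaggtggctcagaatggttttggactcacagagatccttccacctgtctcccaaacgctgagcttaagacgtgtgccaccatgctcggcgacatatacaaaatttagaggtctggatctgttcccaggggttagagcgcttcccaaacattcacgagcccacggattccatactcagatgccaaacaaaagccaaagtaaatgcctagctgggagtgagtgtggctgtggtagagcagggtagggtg

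GC boxes stood in 3 of the 10 windows (Mccc1, Ppm1k and the first Bckdhb start), against 32.7% of the 32851 RefSeq promoter windows of the same length. CCAAT boxes stood in 6 of 10 (Ivd, Mccc1, Ppm1k, Bckdk, the first Bckdhb start and Mccc2), against 33.8% of all windows. The E-box CACGTG was found only at Mccc2, with 6.02% of all windows holding it. The letters AAGGTCA, known as a site of estrogen-related receptors, were in 0 of the 10 windows and in 4.08% of all. These matches describe letters in the windows and say nothing about whether a factor binds there.

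Per unit of exon length, Bckdhb had the highest median of the 9 genes and Ppm1k the lowest in all 4 groups. Levels between genes are given as FPKM, which the authors scaled to the library total and to the length of all merged exons of a gene. Median Bckdhb was 116 FPKM in BAT AKO, 97.6 in BAT control, 70.9 in WAT AKO and 48.7 in WAT control. Median Ppm1k was 1.94 FPKM in BAT AKO, 1.87 in BAT control, 2.85 in WAT AKO and 1.41 in WAT control. The subunits of the decarboxylase had unequal FPKM, with a limit on Bckdha. Of its 1899 merged exon bases, 1171 are shared with B3gnt8 on the opposite strand, and the strand setting of the counting is not given. How reads in the shared part were counted is therefore unknown, and the FPKM of Bckdha, its ratios and its place among the genes carry that limit. The ratio of Bckdha to Bckdhb FPKM was 0.716, 0.736 and 0.856 in BAT AKO, 0.931, 0.927 and 0.91 in BAT control, 0.365, 0.366 and 0.421 in WAT AKO, and 0.531, 0.442 and 0.5 in WAT control.

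The order of the genes differed between the depots. In BAT, Bckdha took place 2 by median FPKM, with 82.9 in BAT AKO and 89.5 in BAT control. In WAT it took place 5 in AKO (26.1 FPKM) and place 6 in control (21.5 FPKM), and its libraries overlapped those of Bckdk in both. Ivd took place 3 in both BAT groups, where it overlapped Bckdk in place 4, and place 2 in both WAT groups, where in WAT control it overlapped Bckdhb. Bcat2 took place 3 in both WAT groups, with medians of 44 FPKM in WAT AKO and 34.8 in WAT control, but place 7 in BAT AKO (21.7 FPKM) and place 6 in BAT control (25.4 FPKM). Bcat2 and Dbt overlapped in both BAT groups, and Bcat2 overlapped Ivd and Mccc2 in WAT control. The genes were read in the same libraries, so overlapping ranges do not show equal levels. Ivd was above Bcat2 in each WAT control library (57.5 against 38.5, 40 against 34.8 and 35.6 against 23.8 FPKM). It was above Bckdk in each BAT control library, but not in BAT AKO 2. The order of Bcat2 with Dbt in BAT, and with Mccc2 in WAT control, varied between libraries. Mccc1 had 8.51 to 12 FPKM in AKO libraries and 7.17 to 11.8 FPKM in control libraries over a merged exon length of 10952 bases, and Mccc2 had 36.8 to 41.7 FPKM in AKO libraries and 30.6 to 43.5 FPKM in control libraries over 2802 bases. The merged length counts the exons of all transcript forms of a gene, and the share of each form was not measured.

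**Figure D1:**
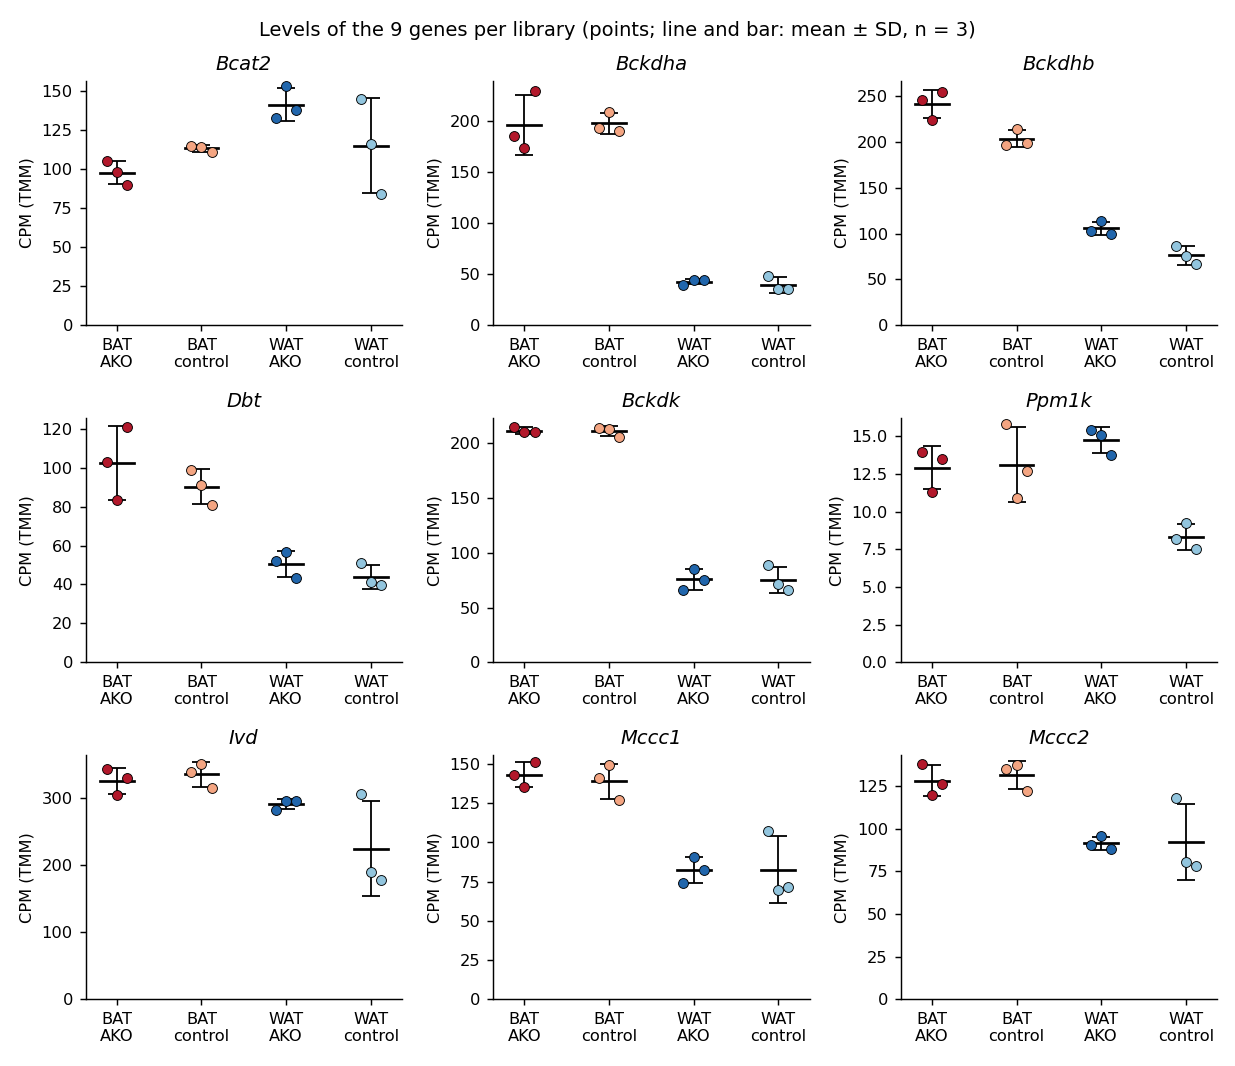
CPM (TMM-scaled over the 12 libraries) of the 9 genes in BAT AKO, BAT control, WAT AKO and WAT control; points are libraries, lines and bars the mean ± SD of 3. Ppm1k in WAT AKO (13.8 to 15.4 CPM) lies above WAT control (7.5 to 9.25 CPM), and Bckdha in BAT (173 to 229 CPM) lies above WAT (34.9 to 48.5 CPM).

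In WAT, the genotypes were compared to see how expression of the pathway differed with the Mcu deletion. Ppm1k, at 1.78-fold, and Bckdhb, at 1.39-fold, had the highest WAT AKO levels relative to WAT control, and neither passed the test. By edgeR's quasi-likelihood test with Benjamini-Hochberg adjustment over 15915 genes, 0 of the 9 genes passed an adjusted p of 0.05, in a comparison in which 0.0189% of all genes passed (3 genes). At an unadjusted p under 0.05, 2 of 9 were higher in WAT AKO, where 10.6% of all genes were higher, and 0 of 9 were lower, where 12% of all genes were. The same 2 genes, Ppm1k and Bckdhb, were the ones whose AKO libraries all lay above all control libraries, a pattern shown by 14.9% of all genes. The median log2 fold change of the 9 was 0.20, against 0.00 over all genes tested.

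Ppm1k, the phosphatase that activates the complex, had 15.4, 15.1 and 13.8 CPM in WAT AKO, against 8.21, 9.25 and 7.5 CPM in WAT control. The lowest WAT AKO library stood well above the highest WAT control library. The log2 fold change was 0.83 (SE 0.139, 95% interval 0.50 to 1.16), or 1.78-fold, with an adjusted p of 0.0799 by edgeR. Over the 16 alternative settings and left-out libraries it ran from 0.65 to 0.96, with adjusted p from 0.00012 to 0.305, and 3 of the 16 passed.

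Bckdhb, the beta subunit of the decarboxylase, had 103, 114 and 100 CPM in WAT AKO, against 86.8, 75.2 and 66.3 CPM in WAT control. The groups did not overlap here either, with WAT control 1 nearest to the AKO libraries. Its log2 fold change was 0.47 (SE 0.124, 0.18 to 0.77), or 1.39-fold (edgeR adjusted p = 0.123). Both genes passed by DESeq2 (adjusted p = 0.00012 for Ppm1k and 0.0138 for Bckdhb), which called 1679 genes in this comparison, and both passed in an edgeR fit of all 12 libraries together (0.0187 and 0.0272), which called 1030. Leaving out WAT control 2 brought Ppm1k past the threshold by edgeR (log2 0.89, adjusted p = 0.0248) and the count of all called genes to 1649, while leaving out any one of the other 5 libraries gave 1 called gene. Bckdhb lies on chromosome 9 (mm10, 83925145 to 84124240, plus strand), 4.42 Mb from Zfp949, a zinc finger gene that edgeR called higher in WAT AKO (log2 1.92, adjusted p = 0.0403).

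The other subunits of the complex showed smaller differences. Bckdha had 39.5, 43.8 and 44.5 CPM in WAT AKO and 48.5, 35 and 34.9 CPM in WAT control (log2 0.11, -0.25 to 0.47), and the groups overlapped. Dbt, the core transacylase, had 51.8, 56.6 and 43.5 CPM in WAT AKO and 51.1, 41.2 and 39.7 CPM in WAT control (log2 0.20, -0.16 to 0.56), again with overlap. The kinase Bckdk had 66.3, 85.5 and 75.1 CPM in WAT AKO and 88.8, 71.4 and 65.7 CPM in WAT control, a log2 fold change of 0.01 (-0.35 to 0.36). Within libraries, the ratio of Bckdk to Ppm1k FPKM was 7, 9.21 and 8.87 in WAT AKO, against 17.6, 12.6 and 14.3 in WAT control. The ratios of the WAT groups did not overlap, and being taken within a library they do not depend on how libraries are scaled to each other. With Bckdk at a log2 fold change of 0.01, they largely restate the Ppm1k difference and add no separate support.

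Of the transaminase and the leucine branch, none stood apart in WAT on the CPM scale, which uses TMM factors. Bcat2 had 133, 153 and 138 CPM in WAT AKO, against 145, 116 and 84.3 CPM in WAT control, and the log2 fold change was 0.29 (-0.18 to 0.77, edgeR adjusted p = 0.396). The FPKM of Bcat2, scaled to library totals, did not overlap, at 42.9, 44.1 and 44 in WAT AKO and 38.5, 34.8 and 23.8 in WAT control. Ivd had 282, 295 and 296 CPM in WAT AKO and 306, 189 and 178 CPM in WAT control (log2 0.37, -0.15 to 0.90), while its FPKM was 64.4, 60.1 and 66.8 in WAT AKO and 57.5, 40 and 35.6 in WAT control, without overlap. On the FPKM scale 5 of the 9 genes had every WAT AKO library above every WAT control library, as did 19.3% of all genes: Ppm1k and Bckdhb as on the CPM scale, and also Bcat2, Ivd and Dbt (16.1 to 19.5 FPKM in WAT AKO, 13 to 15.8 in WAT control), whose separation depended on the scaling. Mccc1 had 74.1 to 90.5 CPM in WAT AKO and 69.6 to 107 CPM in WAT control, and Mccc2 had 88.3 to 95.5 CPM in WAT AKO and 78 to 118 CPM in WAT control. Their log2 fold changes were both -0.01, with intervals of -0.46 to 0.44 and -0.42 to 0.40. These 4 genes overlapped between the groups on the CPM scale. WAT control 1 held the highest WAT control value of 8 of the 9 genes, Ppm1k being the exception, and was the control library with 1.42% muscle marker counts. Without the libraries above 1% muscle markers, the log2 fold change in WAT was 0.79 for Ppm1k, 0.51 for Bckdhb and 0.64 for Ivd, and none passed (adjusted p = 0.26, 0.263 and 0.252).

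Markers of other cells differed between the same WAT libraries. The 8 B lymphocyte markers summed to 0.0423% to 0.107% of counts in WAT AKO, against 0.000232% to 0.0354% in WAT control, where WAT control 2 held the 0.0354%. T lymphocyte markers summed to 0.0214% to 0.04% in WAT AKO and 0.0016% to 0.0241% in WAT control. All 8 tested genes of each lymphocyte list had positive log2 fold changes and 0 passed; 1 B lymphocyte marker was at 0 in WAT control 1 and no lymphocyte marker was at 0 in a WAT AKO library. The 8 adipocyte markers summed to 2.25% to 2.46% in WAT AKO and 2.58% to 2.76% in WAT control, and the 6 progenitor markers to 0.191% to 0.216% in WAT AKO and 0.222% to 0.402% in WAT control. The 8 macrophage markers summed to 0.0774% to 0.106% in WAT AKO and 0.0796% to 0.112% in WAT control. These macrophage sums overlapped, yet 7 of the 8 genes had negative log2 fold changes, 6 of them at an unadjusted p under 0.05, with a median of -0.79, and 0 passed. Trem2 (-2.34, edgeR adjusted p = 0.067) and Adgre1 (-1.33, adjusted p = 0.0749) were nearest to a call, and Lyz2 was the positive one (0.17). The 6 endothelial markers summed to 0.0664% to 0.103% in WAT AKO and 0.0824% to 0.159% in WAT control, with 6 of 6 log2 fold changes negative (median -0.51), 1 at an unadjusted p under 0.05 and 0 passing. The part of these cell markers in the values of the 9 genes was not tested.

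**Figure D2:**
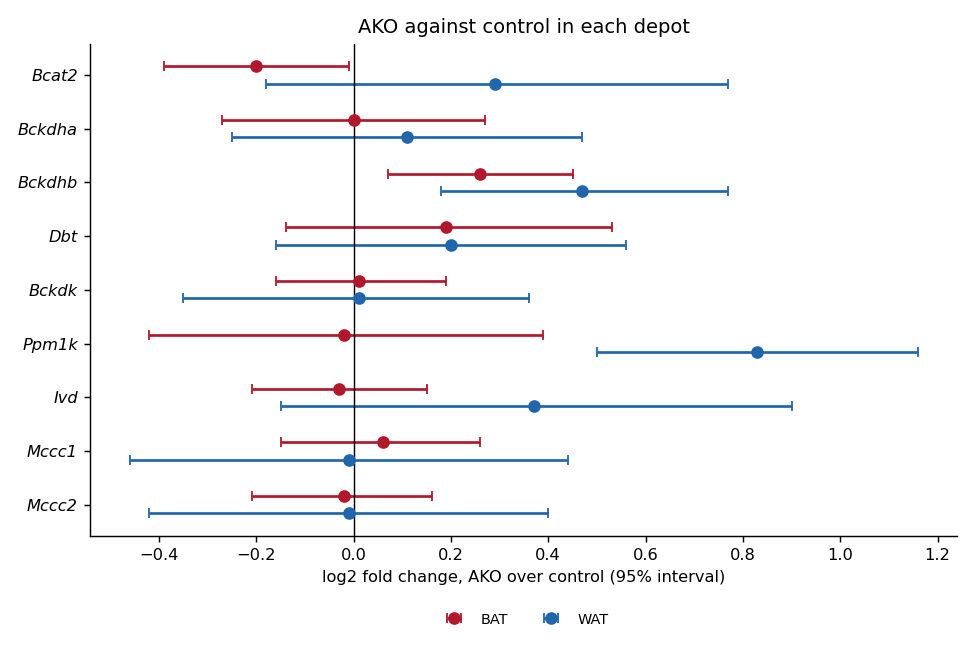
Log2 fold change of AKO over control with its 95% interval for the 9 genes, in BAT (red) and WAT (blue), by edgeR. In WAT the intervals of Ppm1k (0.50 to 1.16) and Bckdhb (0.18 to 0.77) lie above 0, and in BAT Bckdhb (0.07 to 0.45) lies above and Bcat2 (-0.39 to -0.01) below.

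In BAT the same comparison gave smaller values. Of the 9 genes, 0 passed the adjusted threshold by edgeR among 14265 genes tested, in a comparison in which 0.0771% of genes passed (11 genes). Without BAT control 2 the count of all called genes was 95, and without any one of the other 5 libraries it was 0 to 2. At an unadjusted p under 0.05, 1 of the 9 was higher in BAT AKO and 1 lower, where 7% and 6.62% of all genes were, and DESeq2, with 280 genes called, called 0 of the 9. The median log2 fold change of the 9 was 0.00, against 0.01 over all genes.

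In BAT, Bckdhb was the member nearest to a call on the higher side. It had 246, 224 and 254 CPM in BAT AKO, against 197, 214 and 199 CPM in BAT control, and the groups did not overlap. The log2 fold change was 0.26 (SE 0.079, 0.07 to 0.45), or 1.2-fold (edgeR adjusted p = 0.287); 8.35% of all genes had every BAT AKO library above every BAT control library. Bcat2 had 105, 98.2 and 90 CPM in BAT AKO, against 115, 114 and 111 CPM in BAT control. Its BAT AKO libraries all lay below its BAT control libraries, as for 10.3% of all genes, and the log2 fold change was -0.20 (SE 0.0818, -0.39 to -0.01, edgeR adjusted p = 0.357). Within libraries the ratio of Bckdhb to Bcat2 FPKM was 5.07, 4.93 and 6.1 in BAT AKO, against 3.72, 4.05 and 3.87 in BAT control. This ratio restates the differences just given for each gene and adds no separate support.

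The remaining 7 genes had log2 fold changes of -0.03 to 0.19 in BAT, and their groups overlapped on the CPM scale. On the FPKM scale Bckdk narrowly did not overlap, at 48.9 to 49.4 in BAT AKO and 49.5 to 51 in BAT control, so its overlap depended on the scaling. On the CPM scale 10.3% of all genes had every BAT AKO library below every BAT control library, and the FPKM share is not given here. Ppm1k had 14, 11.3 and 13.5 CPM in BAT AKO and 15.8, 10.9 and 12.7 CPM in BAT control, a log2 fold change of -0.02 (-0.42 to 0.39). Bckdk had 215, 210 and 210 CPM in BAT AKO and 214, 213 and 206 CPM in BAT control, a log2 fold change of 0.01 whose interval of -0.16 to 0.19 is the narrowest of the 9. Of all 12 libraries, BAT AKO 3 held the highest values of Bckdha (229 CPM), Bckdhb (254 CPM) and Dbt (121 CPM), the 3 genes for subunits particular to the complex. Without BAT AKO 2, the library with 1.89% muscle markers, Bckdhb had a log2 fold change of 0.29 and Bcat2 of -0.23.

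The difference between the depots was tested directly, as the AKO effect in BAT minus that in WAT. Of the 9 genes, 0 passed by edgeR among 16391 tested, where 0.275% of genes passed (45 genes), and 0 were higher and 2 lower at an unadjusted p under 0.05, where 8.34% and 10.1% of all genes were. Over all genes, left-out libraries moved that count between 2 and 923, the 923 without WAT control 2, 135 without BAT control 2 and 107 without WAT AKO 2. Ppm1k had the largest difference, -0.88 (SE 0.225, -1.38 to -0.39), with an edgeR adjusted p of 0.104. It passed by DESeq2 (-0.82, adjusted p = 0.0205) and without WAT control 2 (-0.96, adjusted p = 0.0451). Bcat2, with AKO effects of -0.20 in BAT and 0.29 in WAT, differed by -0.53 (SE 0.223, -1.03 to -0.04, edgeR adjusted p = 0.233). The Ivd difference was -0.44 (-0.98 to 0.09), and the other 6 genes differed by -0.25 to 0.03.

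**Figure D3:**
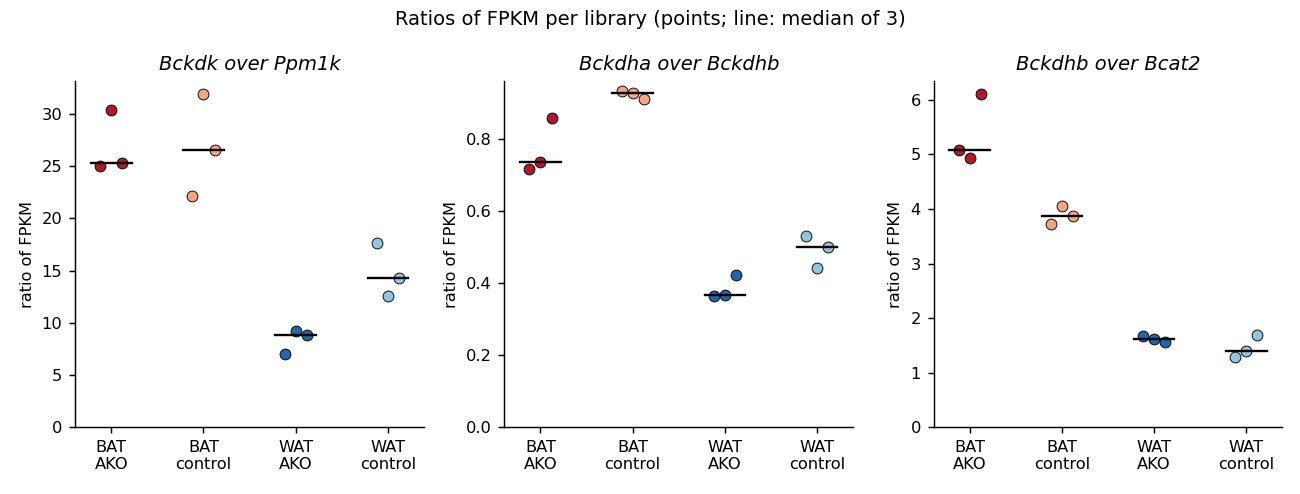
Ratios of FPKM within each library for Bckdk over Ppm1k, Bckdha over Bckdhb and Bckdhb over Bcat2, by group; points are libraries and lines medians. The Bckdk to Ppm1k ratio is 7 to 9.21 in WAT AKO and 12.6 to 17.6 in WAT control, and 25 to 30.4 in BAT AKO and 22.1 to 31.9 in BAT control.

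Between the depots most of the 9 genes differed. In AKO mice, 6 of the 9 genes were higher in BAT than in WAT by edgeR (adjusted p under 0.05) and 1, Bcat2, was lower, in a comparison in which 28.8% of 15671 genes were higher, 30.5% lower and 59.3% differed either way. The 6 were Bckdha, Bckdhb, Dbt, Bckdk, Mccc1 and Mccc2. In control mice, 7 were higher in BAT, those 6 and Ppm1k, and 0 were lower, where 24.4% of 15031 genes were higher, 25.7% lower and 50.1% differed either way. The median log2 fold change of the 9 was 0.88 in AKO, against -0.02 over all genes, and 0.78 in controls, against -0.04 over all genes. These values rest on TMM scaling. With library totals alone, chosen as an alternative after seeing the data, the median gene shifted to -0.60 in AKO and -0.40 in controls. Calls over all genes then split into 2068 higher and 8759 lower in AKO (4510 higher and 4781 lower with TMM), and into 2107 higher and 6253 lower in controls (3666 higher and 3858 lower with TMM).

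The dehydrogenase complex and its kinase carried the largest depot differences. Bckdha, the alpha subunit of the decarboxylase, had 185, 173 and 229 CPM in BAT AKO, against 39.5, 43.8 and 44.5 CPM in WAT AKO, a log2 fold change of 2.29 (SE 0.135), or 4.88-fold (edgeR adjusted p = 1.24e-05). It had 193, 209 and 190 CPM in BAT control, against 48.5, 35 and 34.9 CPM in WAT control, a log2 fold change of 2.36 (SE 0.156), or 5.12-fold (adjusted p = 7.28e-05). The BAT libraries stood far above the WAT libraries in both genotypes. Part of Bckdha cannot be told apart from B3gnt8: 1171 of its 1899 merged exon bases are shared with that gene on the opposite strand, B3gnt8 had 41 to 229 counts per library, and no source used here gives the strand setting of the counting.

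Bckdk had a BAT over WAT log2 fold change of 1.57 in AKO (2.96-fold, adjusted p = 3.47e-05), with 210 to 215 CPM in BAT and 66.3 to 85.5 CPM in WAT. In controls it was 1.52 (2.87-fold, adjusted p = 0.00021), with 206 to 214 CPM in BAT and 65.7 to 88.8 CPM in WAT. Bckdhb differed by 1.27 in AKO (2.42-fold, adjusted p = 5.48e-05) and by 1.45 in controls (2.73-fold, adjusted p = 0.000193). Dbt differed by 1.10 in AKO (2.14-fold, adjusted p = 0.000964) and by 1.07 in controls (2.1-fold, adjusted p = 0.000832). For these 4 genes, each BAT library was above each WAT library in both genotypes, as for 29.3% of all genes in AKO and 28.8% in controls, and they remained called higher in BAT under all 16 alternatives of each comparison. The Bckdha to Bckdhb ratio of FPKM was below 1 in all libraries yet nearer to 1 in BAT, and the Dbt to Bckdha ratio ran from 0.241 to 0.315 in BAT and from 0.554 to 0.744 in WAT. Both ratios carry the limit on Bckdha from the exon bases it shares with B3gnt8.

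The leucine branch had smaller depot differences. Mccc1 was higher in BAT by 0.88 in AKO (adjusted p = 0.000377) and by 0.78 in controls (adjusted p = 0.0116). Mccc2 was higher by 0.57 in AKO (adjusted p = 0.00142) and by 0.54 in controls (adjusted p = 0.0369), but with library totals alone its log2 fold change was -0.01 in AKO and 0.19 in controls (adjusted p = 0.297). The control call of Mccc2 was also lost without WAT control 2 (0.47, adjusted p = 0.0952), WAT control 3 (0.43, 0.0908), BAT control 1 (0.52, 0.0998), BAT control 2 (0.53, 0.0891) or BAT control 3 (0.60, 0.0623).

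Ivd had 343, 304 and 329 CPM in BAT AKO, against 282, 295 and 296 CPM in WAT AKO. It had 339, 351 and 315 CPM in BAT control, against 306, 189 and 178 CPM in WAT control. On the CPM scale the depots did not overlap in either genotype, with BAT higher, as for 29.3% of all genes in AKO and 28.8% in controls. On the FPKM scale BAT AKO (47.6 to 52.9) lay below WAT AKO (60.1 to 66.8). The share of all genes that do so is not given here, and with library totals the median gene stood at -0.60 in AKO. The control depots overlapped on that scale, at 50.7 to 55.4 in BAT and 35.6 to 57.5 in WAT. In AKO the log2 fold change was 0.25 (0.02 to 0.47, edgeR adjusted p = 0.0594), 0.27 without WAT AKO 2 (adjusted p = 0.0433), and -0.33 with library totals alone (adjusted p = 0.0187). In controls it was 0.61 (0.10 to 1.13, edgeR adjusted p = 0.0522), 0.93 without WAT control 1 (adjusted p = 0.00178), and 0.66 with the replicate number as a block (adjusted p = 0.0187), which made 8 of 9 genes called.

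Ppm1k and Bcat2 were the only members with a negative BAT over WAT log2 fold change in AKO by edgeR with TMM. In controls neither was negative. In AKO mice the BAT and WAT libraries of Ppm1k overlapped on the CPM scale, at 14, 11.3 and 13.5 CPM in BAT and 15.4, 15.1 and 13.8 CPM in WAT. The log2 fold change was -0.11 (-0.43 to 0.20, edgeR adjusted p = 0.505). On the FPKM scale they did not overlap, at 1.61 to 1.98 in BAT AKO and 2.82 to 3.23 in WAT AKO. The share of all genes that do so is not given here. FPKM uses library totals, with which the median gene stood at -0.60 in AKO and 8759 genes were called lower in BAT. In controls Ppm1k was higher in BAT (15.8, 10.9 and 12.7 CPM) than in WAT (8.21, 9.25 and 7.5 CPM), by 0.69 (SE 0.194, edgeR adjusted p = 0.0227). The control CPM did not overlap, as for 28.8% of all genes. The control FPKM did, with WAT control 2 at 1.79 within the 1.58 to 2.31 of BAT control. The control call was lost without WAT control 1 (0.71, adjusted p = 0.0516), WAT control 3 (0.62, 0.0626), BAT control 1 (0.54, 0.0811) or BAT control 3 (0.73, 0.0523). With library totals alone Ppm1k differed by -0.69 in AKO (adjusted p = 0.00413) and by 0.33 in controls (adjusted p = 0.209). The test of whether the depot difference itself differs between genotypes is the one given above for the AKO effects, which is the same contrast of the 4 groups.

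Bcat2 did not follow the dehydrogenase it feeds. In AKO mice it had 105, 98.2 and 90 CPM in BAT, against 133, 153 and 138 CPM in WAT. The depots did not overlap, with BAT lower, as for 38% of all genes. The log2 value was -0.45 (SE 0.104, edgeR adjusted p = 0.00728), and it remained called under all 16 alternatives, with a range of -1.02 to -0.37. The largest size, -1.02, came with library totals alone (edgeR adjusted p = 7.12e-05) and with log2(FPKM + 0.1). In controls it had 115, 114 and 111 CPM in BAT and 145, 116 and 84.3 CPM in WAT, and the log2 fold change of 0.01 had an interval of -0.45 to 0.46. Its antisense partner 0610005C13Rik, which shares 622 exon bases, had 0 to 14 counts per library.

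**Figure D4:**
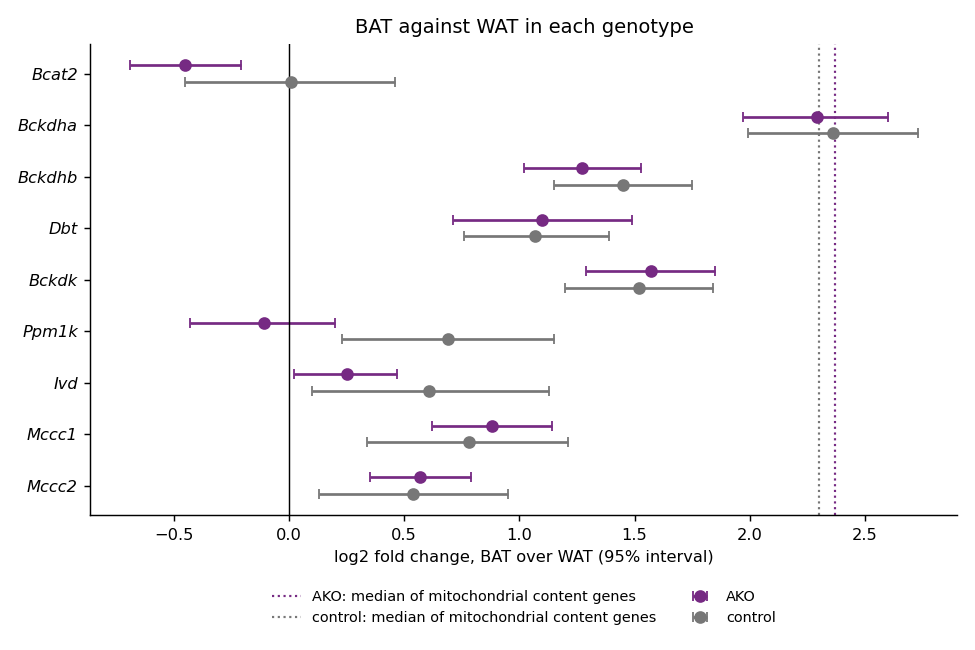
Log2 fold change of BAT over WAT with its 95% interval for the 9 genes, in AKO (purple) and control (grey) libraries, by edgeR; dotted lines mark the median of 14 mitochondrial content genes, 2.37 in AKO and 2.30 in controls. Bckdha (2.29 in AKO, 2.36 in controls) lies nearest to those lines, and Bcat2 (-0.45 in AKO, 0.01 in controls) is lowest in both genotypes.

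Other mitochondrial genes give the scale of the depot difference. The 14 genes taken as a gauge of mitochondrial content (such as citrate synthase and succinate dehydrogenase subunits) had a median BAT over WAT log2 fold change of 2.37 in AKO, where 14 of 14 were called higher, and of 2.30 in controls, where 13 of 14 were. The sister complexes of the branched-chain dehydrogenase, those for pyruvate and 2-oxoglutarate, had medians of 2.97 in AKO and 2.66 in controls over 7 genes, of which 6 were called higher and 1 lower in each genotype. Ogdh, the 2-oxoglutarate decarboxylase, differed by 3.47 in AKO and 3.30 in controls, and Pdha1, the alpha subunit of pyruvate dehydrogenase, by 3.00 in AKO and 2.98 in controls. All 9 branched-chain genes had smaller log2 fold changes than the median of the mitochondrial gauge in AKO, and 8 of 9 did in controls, Bckdha being the exception at 2.36. The gauge genes themselves ran from 0.28 to 4.29 in AKO and from 0.17 to 4.17 in controls. Of the members, only Ivd, Ppm1k and Bcat2 lay below that range in AKO, and only Bcat2 in controls. No test of the difference from the gauge was run.

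The rest of the pathway was read from lists made by textbook pathway membership. Of 13 further genes of the leucine, isoleucine and valine routes, 0 passed between AKO and control in BAT (median log2 fold change 0.03) and 0 in WAT (median -0.02), by edgeR. At an unadjusted p under 0.05, 1 was lower in BAT, Bcat1, where 6.62% of all genes were, and 0 differed in WAT. Bcat1, the cytosolic transaminase, had 3.21, 2.74 and 3.39 CPM in BAT AKO, against 13.8, 2.06 and 24.5 CPM in BAT control. The groups overlapped because BAT control 2 was the lowest of the 6, and the log2 fold change was -2.11 (adjusted p = 0.328). In WAT Bcat1 had 33.3, 37.2 and 35.1 CPM in AKO, against 70.5, 27.2 and 96.6 CPM in control, where control 2 was again lowest (log2 -0.88, adjusted p = 0.262).

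Between the depots most of this list was higher in BAT. In AKO 12 of 13 were higher in BAT and 1, Bcat1, lower (log2 -3.41, adjusted p = 5.07e-06), and in controls 10 were higher and 0 lower. Dld, the subunit shared by all the dehydrogenase complexes, differed by 2.59 in AKO (adjusted p = 1.77e-05) and 2.29 in controls (adjusted p = 5.09e-05). The thiolase Acat1, which acts late in the isoleucine route, differed by 2.26 in AKO and 2.13 in controls, and Hibadh, a dehydrogenase of the valine route, by 1.42 in AKO and 1.37 in controls. All 6 genes that carry propionyl-CoA to succinyl-CoA were higher in BAT in both genotypes, among them Mmaa (2.21 in AKO, 2.35 in controls) and Pccb (1.82 in AKO, 1.80 in controls). Of those 6, 0 passed between AKO and control in either depot, with medians of 0.08 in BAT and -0.05 in WAT.

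Of these lists, branched-chain amino acid transporters had the lowest median in the BAT comparison. Their median AKO over control log2 fold change in BAT was -0.91, against 0.01 over all genes. By edgeR 0 of 6 passed, and 4 of 6 were lower at an unadjusted p under 0.05, where 6.62% of all genes were. Slc7a5, the light chain of the large neutral amino acid exchanger at the plasma membrane, had 1.12, 1.01 and 1.2 CPM in BAT AKO, against 1.81, 3.76 and 7.02 CPM in BAT control (log2 -1.90, adjusted p = 0.263). Its partner heavy chain Slc3a2 had 61.4, 62.8 and 53.2 CPM in BAT AKO, against 110, 77.2 and 115 CPM in BAT control (log2 -0.76, adjusted p = 0.243). Neither gene's BAT groups overlapped, with BAT AKO lower, as for 10.3% of all genes.

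The facilitative carrier Slc43a2 had 47.7, 58.5 and 76 CPM in BAT AKO, against 180, 68.4 and 133 CPM in BAT control (log2 -1.06, adjusted p = 0.318), with BAT AKO 3 above BAT control 2. Slc7a8, another light chain, had a log2 fold change of -1.85 (adjusted p = 0.336), with BAT control 2 at 6.03 CPM below all 3 BAT AKO libraries, which had 7.42 to 9.6 CPM. BAT control 2 was the control library nearest to, or within, the AKO range for Slc3a2, Slc43a2, Slc7a8 and Bcat1. The 8 macrophage markers summed to 0.0128% to 0.017% of counts in BAT AKO, against 0.0186% to 0.0209% in BAT control, with none at 0 and 7 of 8 log2 fold changes negative, and their part in these transporter and Bcat1 values was not tested. Slc25a44, the mitochondrial carrier that supplies Bcat2 with its substrates, had log2 fold changes of -0.13 in BAT and 0.04 in WAT, and was higher in BAT than in WAT by 1.01 in AKO (adjusted p = 5.95e-05) and 1.13 in controls (adjusted p = 0.000523). In WAT the transporters' median was 0.14 and 0 of 6 passed, with 2 of 6 higher at an unadjusted p under 0.05, where 10.6% of all genes were. The facilitative carrier Slc43a1 had 65.9, 64.7 and 48.7 CPM in WAT AKO, against 37.8, 16.7 and 10.5 CPM in WAT control (log2 1.47, edgeR adjusted p = 0.148). Its WAT groups did not overlap, with WAT AKO higher, as for 14.9% of all genes. Slc7a5 there had 17, 12.6 and 17.1 CPM in AKO, against 10.6, 9.4 and 11.4 CPM in control (log2 0.57, adjusted p = 0.136), so its difference between depots was -2.51 (edgeR adjusted p = 0.0773).

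**Figure D5:**
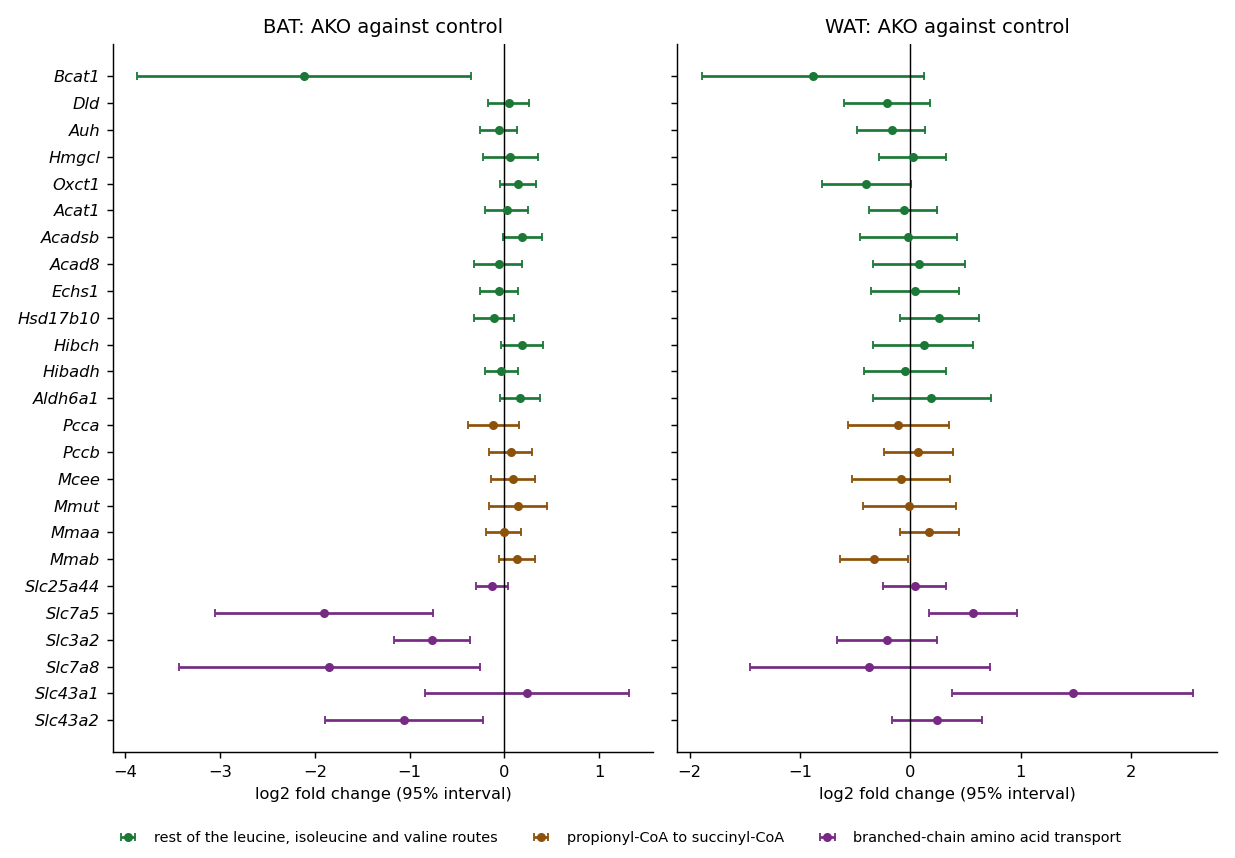
Log2 fold change of AKO over control with its 95% interval, by edgeR, for the further genes of the amino acid routes (green), of propionyl-CoA conversion (brown) and of branched-chain amino acid transport (purple), in BAT (left) and WAT (right). No gene plotted passed the adjusted threshold; Bcat1 (-2.11), Slc7a5 (-1.90) and Slc7a8 (-1.85) are lowest in BAT, and Slc43a1 (1.47) is highest in WAT.

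Covariation among the 9 genes was described over the 12 libraries after the depot mean was subtracted from log2 CPM, as Pearson's r. The 12 points share library composition and depth, so no p is given. The carboxylase partners Mccc1 and Mccc2 had an r of 0.899, and Mccc1 had 0.878 with Bckdk and 0.850 with Bckdha. Bcat2 was closest to Ivd (0.839) among the 9. Ppm1k had 0.736 with Bckdhb, and 0.062 with Bckdk and 0.014 with Mccc1. Bckdhb and Dbt had 0.730, and Bckdhb and Bckdha, which form the same decarboxylase, 0.558.

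Among all 13850 genes compared, the closest to each member were H2-Q10 for Bcat2 (0.950), Acadvl for Bckdha (0.965), Fam13a for Bckdhb (0.962), Bach1 for Dbt (0.917) and Atp5c1 for Bckdk (0.964). For the remaining genes they were Cep57 for Ppm1k (0.952), Zfp879 for Ivd (0.974), Ndufb10 for Mccc1 (0.963) and Csad for Mccc2 (0.944). Mccc1 and Mccc2 stood among each other's nearest genes, Mccc1 in place 16 for Mccc2 and Mccc2 in place 23 for Mccc1.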

How the data were processed

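RNA was measured in 12 libraries, and each library's depot, genotype and replicate number came from its title. RNA was isolated with TRIzol and libraries made with the VAHTS Universal V6 kit, per the labels' protocols. The authors deposited raw read counts for each Ensembl gene, without normalisation. The submitters' processing notes name HISAT2 2.1.0, Bowtie2 2.2.3, HTSeq 0.6.0 and the build mm10. Not given in the sources used here are the role of each tool, the strand setting and the annotation release. The authors' deposited FPKM values equal each count over the library total and a length per gene (largest relative deviation 9.12e-09 at 20 or more counts), and the lengths match the merged exon lengths of GENCODE M21 for the 9 genes, so they add no further measurement.

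Symbols came from GENCODE M21, with 52403 of 52550 gene IDs matched. Tests on counts used edgeR 4.0.16 under R 4.3.3 (filterByExpr, minimum count 10 and minimum total 15, TMM, quasi-likelihood F-test), with Benjamini-Hochberg adjustment over all tested genes and a threshold of 0.05. The 5 comparisons were AKO against control in BAT and in WAT, the difference between those effects, and BAT against WAT in AKO and in controls; each 2-group comparison was fitted on its own 6 libraries. CPM values use TMM over all 12 libraries, and log2 CPM for correlations a prior count of 2. The scripts were tested on simulated data with known changes. Replicates differed by more than sampling noise (chi-square per degree of freedom 16.5 to 83.4). Alternatives were RLE scaling, no filter, a mean of at least 2 CPM, DESeq2 1.42.0, limma 3.58.1 on log2(FPKM + 1) and log2(FPKM + 0.1), a replicate block, leaving out each library or the muscle-rich libraries, and 1 fit of all 12 libraries; library totals alone were added after seeing the data.

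Same-numbered control libraries of BAT and WAT deviated together (r = 0.600, 0.203 and 0.512 over 13851 genes). The AKO libraries did so for numbers 1 and 2 (r = 0.648 and 0.715) but hardly for 3 (0.078). Comparisons across depots without a replicate block treat these libraries as independent. Control 1 also held the most muscle marker counts of the controls in each depot (1.42% in WAT, 0.202% in BAT). AKO 2 held the most of the AKO libraries (2.5% in WAT, 1.89% in BAT). These values therefore cannot show that a number stands for a shared animal, and the labels state no pairing. The genes named are the 9 members, Mcu, up to 4 genes with the smallest p of each list in a comparison, and for each member the gene with the highest correlation; further members of those lists and Zfp949 were named after their values were seen. The members and lists were chosen with earlier results of these data known. Promoter windows came from RefSeq (GRCm38.p6), coordinates of genes from GENCODE.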

Additional observations from a re-analysis of the deposited data

How the results depend on the processing

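Across 16 alternatives in each 2-group comparison and 21 in the difference between depots, 0 of the 9 genes passed between AKO and control in BAT. In WAT 2 passed with DESeq2 and 2 in the fit of all 12 libraries, and 0 to 1 when 1 library was left out; in the difference between depots 1 passed with DESeq2 and 0 to 1 with 1 library left out. Of BAT against WAT, left-out libraries gave 7 to 8 called members in AKO and 5 to 7 in controls. With library totals alone or either FPKM setting, 5 members were called higher and 3 lower in AKO (6 and 1 with TMM). In controls the same settings called 5 higher and 0 lower (7 and 0 with TMM). In AKO, Ivd turned from 0.25 to -0.32 with log2(FPKM + 1), and to -0.33 both with log2(FPKM + 0.1) and with library totals alone, and Mccc2 turned from 0.57 to -0.01 under each of those; the median of all genes moved down with them under library totals (-0.60). Members that passed under neither setting changed sign in 22 of 144 values in WAT (Bckdk, Mccc1 and Mccc2), 20 of 144 in BAT, 25 of 189 in the difference, 0 of 144 in the AKO depot comparison and 6 of 144 in the control one (Bcat2).

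Counts over all genes in WAT (3 called) were 277 without a filter, 1679 with DESeq2, 17 with log2(FPKM + 0.1), 1030 in the fit of all 12 libraries, 0 without the muscle-rich libraries and 1 to 1649 with 1 library left out. In BAT (11 called) they were 33 without a filter, 7 at a mean of at least 2 CPM, 280 with DESeq2, 1 without the muscle-rich library and 0 to 95 with 1 library left out. For the difference (45 called) they were 132 without a filter, 973 with DESeq2, 203 with log2(FPKM + 1), 97 with log2(FPKM + 0.1), 5 without the muscle-rich libraries, 22 with library totals alone and 2 to 923 with 1 library left out. In the depot comparisons they stayed within 1.5 times of 9291 in AKO and 7524 in controls. The causes were not tested.

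With the replicate number as a block, the counts over all genes were 0 in WAT, 1 in BAT, 261 in the difference, 9125 in the AKO depot comparison and 8132 in the control one, and of the members' calls that of Ivd in controls changed and no other. The numbers do not pair the genotypes (r of same-numbered libraries -0.689, -0.329 and 0.092 in BAT, -0.567, 0.078 and 0.309 in WAT). Between the AKO depots, same-numbered r was 0.648, 0.715 and 0.078, and different-numbered r ran from -0.708 to 0.483. WAT AKO 3 was closer to BAT AKO 1 (0.483) than to BAT AKO 3, so pairing of the AKO depots is left undecided. With 3 libraries per group, wide intervals such as that of Ivd in WAT leave moderate changes undetectable.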

Other observations

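Genes that receive the nitrogen of branched-chain amino acids, once Bcat2 has moved it to glutamate, did not pass between AKO and control in either depot by edgeR (0 of 6 in BAT, median log2 fold change 0.03; 0 of 6 in WAT, median 0.33). At an unadjusted p under 0.05, 0 differed in BAT and 1 was lower in WAT, where 12% of all genes were. That gene was the alanine transaminase Gpt (-0.59, edgeR adjusted p = 0.117). Between the depots the mitochondrial alanine transaminase Gpt2 was lower in BAT by 2.97 on the log2 scale in AKO (log2 fold change -2.97, adjusted p = 3.54e-05) and by 2.73 in controls (-2.73, adjusted p = 0.00027). Gpt was lower in BAT in controls (-0.98, adjusted p = 0.00187), whereas the aspartate transaminases Got1 (adjusted p = 0.0128) and Got2 (0.73, adjusted p = 0.0219) were higher there in controls. In AKO, Got1 (1.11, adjusted p = 0.136) and Got2 (0.72, adjusted p = 0.246) did not pass. Got1 had 16.9, 86 and 23.3 CPM in BAT AKO and 16.5, 25.7 and 20 CPM in WAT AKO, and Got2 had 25.1, 95.8 and 29.6 CPM in BAT AKO and 26.7, 39.3 and 31.6 CPM in WAT AKO. Both were highest in BAT AKO 2, the library with 1.89% muscle marker counts, whose part in these values was not tested; in BAT AKO 1 and 3 both genes lay below the highest WAT AKO library.

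Methylcrotonyl-CoA carboxylase needs biotin, attached by holocarboxylase synthetase (Hlcs). Hlcs was lower in BAT than in WAT, at -1.02 in AKO (adjusted p = 0.000226) and -1.72 in controls (adjusted p = 0.00013), while Mccc1 was higher in BAT in both. Its AKO over control log2 fold change in BAT was 0.49 (edgeR adjusted p = 0.264). Of the other biotin-dependent enzymes of the list, the acetyl-CoA carboxylases Acaca (2.46 in AKO, 2.88 in controls) and Acacb (2.60 in AKO, 3.41 in controls) were higher in BAT, whereas pyruvate carboxylase (Pc) did not pass (0.27 in AKO, adjusted p = 0.125, and -0.27 in controls, adjusted p = 0.289). Between AKO and control, 0 of 6 genes of this list passed in either depot, with medians of 0.09 in BAT and -0.05 in WAT. Klf15, a transcription factor known to regulate amino acid catabolism genes, had AKO over control log2 fold changes of 0.33 in BAT (adjusted p = 0.594) and 0.29 in WAT (adjusted p = 0.616).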
